A study of Mus musculus with 8 samples.

Results

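The transcripts described here are those of Wnt signalling in mouse embryonic stem (ES) cells: 50 genes chosen by name for their place in the pathway, covering ligands and their secretion, Frizzled (Fzd) receptors and co-receptors, inhibitors, cytoplasmic transducers, TCF/LEF transcription factors and target genes. Of these 50, 49 had a probe set that the array annotation pairs with that symbol alone, out of 18193 genes measured in this way. Tcf7 was not analysed here. RNA came from 8 one-colour Affymetrix arrays, 4 of ES cells transfected with an esiRNA against Ctr9 and 4 of ES cells transfected with an esiRNA against luciferase, a transcript the cells do not make. The esiRNA method transfects a mixture of small RNA duplexes cut enzymatically out of a long one, and Ctr9 is a subunit of the Paf1 complex, which accompanies elongating RNA polymerase II. All samples of both groups carried the strain label Oct4-Gip, were at passage 25, were transfected by lipofection and were taken on day 4. The cells are thus of 1 line, and the labels do not say if a group's 4 samples were grown apart, so p-values measure the spread between these samples only, which may be technical.

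Wnt ligands are lipid-modified by the acyltransferase Porcn and carried to the cell surface by Wls, bind Fzd receptors together with Lrp5 or Lrp6, and act through Dvl proteins to stop the Axin, Apc and Gsk3b complex from marking beta-catenin (Ctnnb1) for degradation. Beta-catenin then enters the nucleus and acts with TCF/LEF factors on target genes, several of which, such as Axin2 and Nkd1, encode inhibitors of the same pathway. In mouse ES cells Wnt activity is known to favour self-renewal, partly by relieving repression by Tcf7l1, while in the embryo the same pathway is needed to form the primitive streak.

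The target of the knockdown differed little between the groups. The brightest of 5 Ctr9 probe sets read 10.11 ± 0.0273 with Ctr9 esiRNA and 10.20 ± 0.0584 with luciferase esiRNA (log2 signal, SD, n = 4 each; log2 difference -0.09, SE 0.0466; two-sided exact permutation p = 0.0857, and 4 against 4 arrays allow none below 0.0286). Of the other 4, 2 passed as lower and 1 as higher, so the groups are named below by their labels. Arrays of the same group correlated at 0.997 to 0.998 and arrays of different groups at 0.992 to 0.994. All 10 ES cell markers examined, among them Pou5f1, Sox2 and Nanog, read above the median probe set signal. With Ctr9 esiRNA 2 were higher and 4 lower (summed linear signal 80772 to 83093, against 89849 to 91803 with luciferase esiRNA). Esrrb (log2 difference -1.10), Zfp42 (-0.46), Nanog (-0.44) and Pou5f1 (-0.20) were lower. Lin28a (0.79) and Sall4 (0.17) were higher, and the other ES cell markers did not pass. Markers of other cell states were read in the same way, where 15.8% of all genes were higher and 15% lower. Primed epiblast markers were higher in 4 of 4 cases (summed linear signal 5941 to 6544 with Ctr9 esiRNA, 2224 to 2331 with luciferase esiRNA) and trophectoderm markers in 6 of 8 (5128 to 5528, against 2018 to 2395 with luciferase esiRNA). The rise of the trophectoderm sum came mostly from the keratins Krt8 (log2 difference 2.61) and Krt18 (2.39). Cdx2, Gata3, Krt7 and Hand1 rose by 0.54 to 1.39, while Elf5 (0.05) and Tfap2c (-0.13) did not pass. Primitive streak and mesoderm markers were higher in 2 and lower in 1 of 7 cases (411 to 475, against 331 to 359 with luciferase esiRNA). Fgf8 (log2 difference 1.63) and Eomes (0.28) were higher and Gsc (-0.44) lower. Primitive and visceral endoderm markers were higher in 3 of 8 and lower in none (740 to 820, against 540 to 578 with luciferase esiRNA). The 3 were Foxa2 (1.98), Dab2 (1.26) and Amn (0.29), and the rest of both lists did not pass. Neuroectoderm markers were higher in 2 and lower in 1 of 4 (546 to 624, against 475 to 533 with luciferase esiRNA). Sox1 (1.33) and Nes (0.39) were higher, Pax6 (-0.79) was lower and Neurog2 (0.17) did not pass. Fibroblast markers, which would show feeder cells, were higher in 4 of 10 cases, with 2 of the 10 in the dimmest 25% of probe sets (753 to 774, against 612 to 635 with luciferase esiRNA). The 4 were Dcn (0.57), Mmp2 (0.42), Twist1 (0.41) and Col1a2 (0.24). Pdgfrb (0.19) did not pass, nor did Col1a1, Col3a1, Thy1, Postn and Lum, which differed by -0.05 to 0.05. The part of these cell states in the results on Wnt genes was not tested, and fewer cells of a type cannot be told apart from less RNA per cell in such bulk samples.

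Among the 49 Wnt genes, 20 were higher and 4 lower with Ctr9 esiRNA at an adjusted p under 0.05 (limma across all probe sets, Benjamini-Hochberg), and 25 did not pass. Of all 18193 genes, 30.8% passed, 15.8% as higher and 15% as lower. The share of Wnt genes that passed as higher was 40.8% and the share that passed as lower 8.16%. The Wnt genes were chosen with earlier results of these data known, which may raise their shares. The shares here and below thus describe the chosen genes and do not test the pathway against all genes. The median log2 difference was 0.19 over the Wnt genes and 0.0036 over all genes, and the median size without regard to sign was 0.23 and 0.11. Brightness bears on these shares, since brighter probe sets pass more often. Of the 36 Wnt genes above the median probe set signal 16 passed (44.4%), close to the 42.1% of all genes in that range, and of the 13 dimmer ones 8 passed (61.5%), against 9.78% of all genes below the median. RMA, the method named for these arrays, compresses differences of dim probe sets, so the sizes given for those 8 are uncertain. They are Wnt3, Wnt5a, Wnt5b, Wnt8a, Dkk1, Frzb, Tcf7l2 and Sp8. The groups did not overlap for 22 of the 49 (44.9%), against 36.6% of all genes. Changes of at least 2-fold were found for 2 Wnt genes, Fzd2 and Lef1, both higher, where 1.34% of all genes passed with such a change in either direction.

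**Figure D1:**
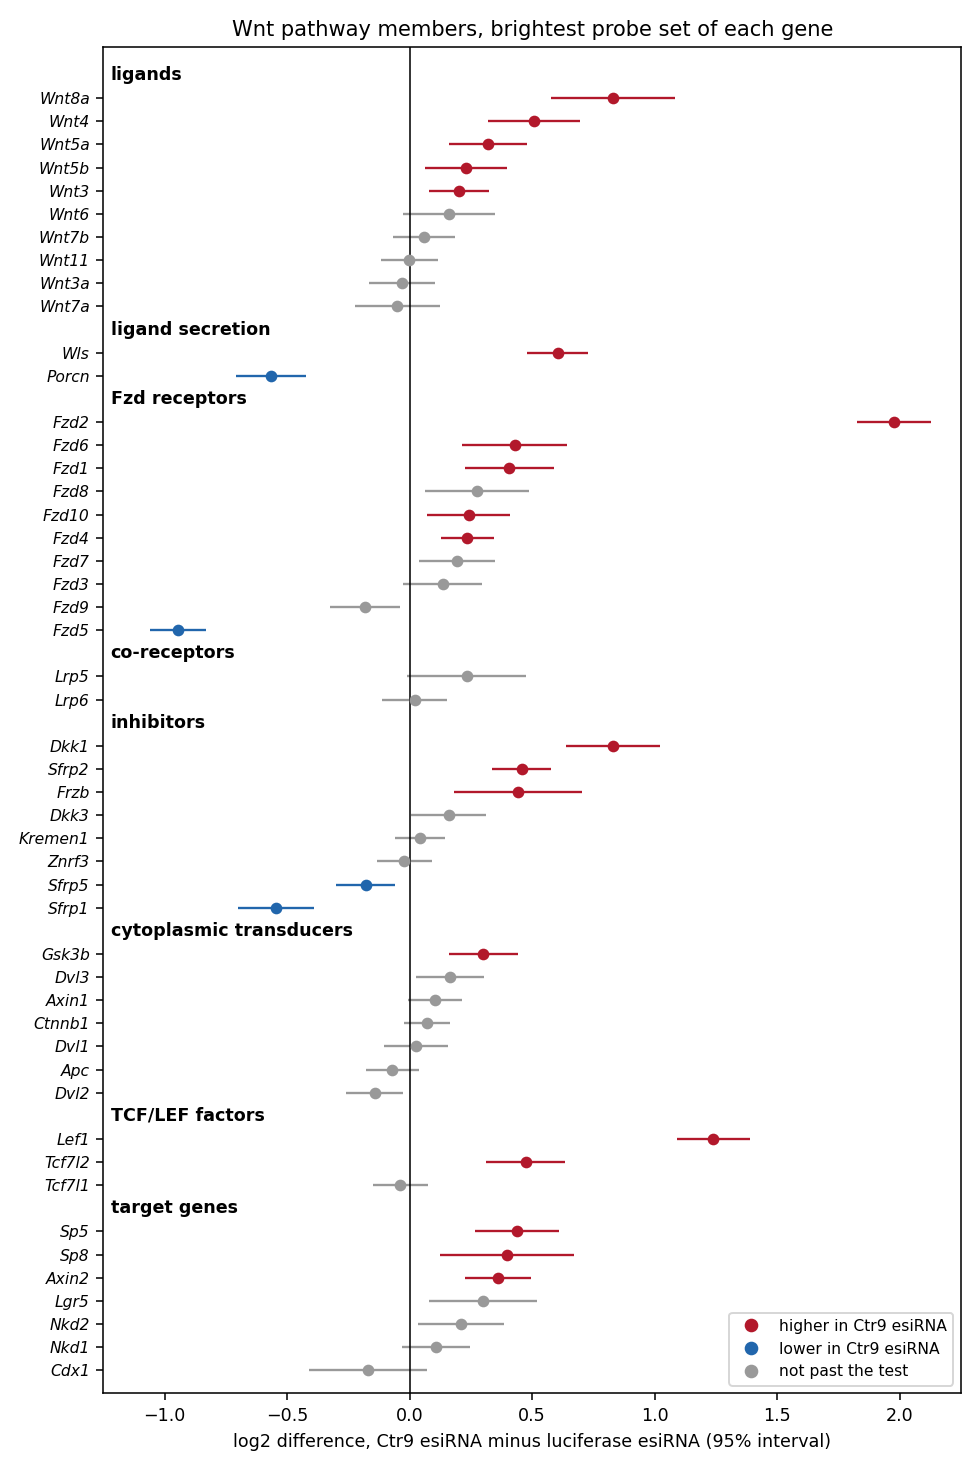
Log2 difference between Ctr9 esiRNA and luciferase esiRNA for the 49 Wnt genes on their brightest probe sets, ordered by size within its role. Points are limma estimates, bars are 95% intervals, and the colours show genes higher (20), lower (4) or not past the test (25) with Ctr9 esiRNA; Fzd2 and Lef1 stand farthest to the right and Fzd5 farthest to the left.

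Of the 10 ligands, 5 were higher with Ctr9 esiRNA, none was lower and 5 did not pass. This count and those of the other roles below belong beside the 15.8% of all genes that were higher and the 15% that were lower. Wnt8a, a ligand of the early primitive streak, had log2 signals of 6.20, 5.79, 5.70 and 6.04 with Ctr9 esiRNA, against 4.98, 5.11, 5.31 and 5.01 with luciferase esiRNA. The lowest Ctr9 esiRNA array thus lay above the highest control array, and Wnt8a rose by 0.83 (SE 0.113, 1.78-fold, adjusted p = 0.000431). Wnt4, a ligand best known from kidney and gonad development, read 7.46, 7.23, 7.54 and 7.22 with Ctr9 esiRNA, against 6.85, 7.0, 6.81 and 6.76 with luciferase esiRNA. It rose by 0.51 (SE 0.0847, adjusted p = 0.00149), again without overlap. Wnt5a, which mainly drives beta-catenin-independent signalling, read 5.17, 4.88, 4.98 and 5.0 with Ctr9 esiRNA, against 4.77, 4.59, 4.62 and 4.78 with luciferase esiRNA (log2 difference 0.32, SE 0.0717, adjusted p = 0.00847). Its 3 other probe sets differed by -0.13 to 0.01 and did not pass, and the mean over its 4 probe sets differed by only 0.035 (adjusted p = 0.543).

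Wnt3, the ligand that in the mouse embryo is needed for gastrulation, passed with a small change on a dim probe set. It read 3.44, 3.57, 3.42 and 3.46 with Ctr9 esiRNA, against 3.22, 3.21, 3.30 and 3.36 with luciferase esiRNA, which did not overlap (log2 difference 0.20, SE 0.0549, adjusted p = 0.0214). Its only probe set has the suffix _x_at, which Affymetrix gives to sets whose probes may also bind other sequences. Wnt5b, close in sequence to Wnt5a, overlapped between the groups and passed narrowly at 0.23 (SE 0.0748, adjusted p = 0.0481). The call of Wnt3 ended without luciferase replicate 1 or 2 or Ctr9 esiRNA replicate 2 (adjusted p 0.0576 to 0.0598), and that of Wnt5b ended without luciferase replicate 1, 2 or 3 or Ctr9 esiRNA replicate 2, 3 or 4 (0.0569 to 0.122).

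The remaining ligands showed no difference that passed. Wnt11, which acts largely outside the beta-catenin branch, read 5.31, 5.31, 5.38 and 5.30 with Ctr9 esiRNA, against 5.23, 5.28, 5.40 and 5.39 with luciferase esiRNA, a log2 difference of -0.002 with a 95% interval of -0.12 to 0.12. The other 4, Wnt3a, Wnt6, Wnt7a and Wnt7b, differed by -0.05 to 0.16 on their brightest probe sets, and the groups overlapped for each. Dimmer probe sets of Wnt7a and Wnt7b passed in opposite directions to each other, at -0.26 (SE 0.0493) for Wnt7a and 0.22 (SE 0.0689) for Wnt7b.

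The 2 genes of ligand secretion changed in opposite directions. Wls, the carrier that brings Wnt proteins to the cell surface, read 7.53, 7.35, 7.39 and 7.54 with Ctr9 esiRNA, against 6.82, 6.84, 6.90 and 6.83 with luciferase esiRNA. It rose by 0.60 (SE 0.0559, 1.52-fold, adjusted p = 3.3e-05), and 2 of its 3 other probe sets rose as well, by 0.56 and 0.18. Porcn, the acyltransferase, read 8.41, 8.44, 8.31 and 8.28 with Ctr9 esiRNA, against 8.89, 8.82, 8.91 and 9.07 with luciferase esiRNA. It fell by 0.57 (SE 0.0639, adjusted p = 0.000125) on its only probe set, and for both genes the groups lay clearly apart.

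The Fzd receptors held both the strongest increase and the strongest fall among the 49 genes. Fzd2, a receptor for several Wnt ligands including Wnt5a, had log2 signals of 9.57, 9.74, 9.66 and 9.77 with Ctr9 esiRNA, against 7.60, 7.62, 7.79 and 7.82 with luciferase esiRNA. The increase of 1.98 (SE 0.0684, 3.94-fold, adjusted p = 9.37e-08) ranked 24 among the increases of all 18193 genes. All 3 Fzd2 probe sets rose, the others by 2.26 (SE 0.0744) and 1.60 (SE 0.0674). Fzd5, a receptor that in mouse embryos is needed for yolk sac and placental vessels, had 9.31, 9.41, 9.41 and 9.45 with Ctr9 esiRNA, against 10.41, 10.37, 10.31 and 10.28 with luciferase esiRNA. It fell by 0.94 (SE 0.0509, 1.93-fold higher in the luciferase arrays, adjusted p = 1.12e-06), ranking 72 among the falls of all genes, and its other probe set fell by 0.77 (SE 0.0733). In both cases the groups were separated by several times their spread.

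Of the other 8 Fzd genes, 4 rose and 4 did not pass. Fzd1 read 6.25, 6.31, 6.15 and 6.44 with Ctr9 esiRNA, against 5.95, 6.04, 5.79 and 5.74 with luciferase esiRNA (log2 difference 0.41, SE 0.0816, adjusted p = 0.00451). Fzd4, which in the eye responds to the ligand Norrin, read 6.59, 6.54, 6.63 and 6.48 with Ctr9 esiRNA, against 6.37, 6.34, 6.31 and 6.29 with luciferase esiRNA (0.24, SE 0.0481, adjusted p = 0.00497). The groups did not overlap for Fzd1 or for Fzd4. Fzd6, known in mouse for its role in hair orientation through planar cell polarity, rose by 0.43 (SE 0.0962), with 1 of its 2 other probe sets also higher and a mean over the 3 of 0.19. Fzd10 passed with overlapping groups at 0.24 (SE 0.0763, adjusted p = 0.0435), and its other probe set differed by -0.08. The Fzd10 call ended without luciferase replicate 1, 2 or 3 or Ctr9 esiRNA replicate 1, 2 or 4 (adjusted p 0.0582 to 0.110), and with luciferase arrays 1 and 2 left out that of Fzd6 ended as well (0.0919).

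Fzd3, a receptor of axon guidance in the mouse, showed how far the reading can hang on the probe set. Its brightest set read 7.15, 7.10, 7.26 and 7.32 with Ctr9 esiRNA, against 6.93, 7.02, 7.20 and 7.14 with luciferase esiRNA, which overlapped and did not pass (0.14, SE 0.0722, adjusted p = 0.218). Of its 5 other sets, 3 rose, by 0.41, 0.29 and 0.37, and the mean over all 6 rose by 0.21 (SE 0.0364, adjusted p = 0.0013). Fzd7, the Fzd gene best known from human and mouse pluripotent cells, differed by 0.19 (95% interval 0.04 to 0.35, adjusted p = 0.0686), with 9.90 to 9.93 in the Ctr9 esiRNA arrays and 9.62 to 9.94 in the luciferase arrays. Its luciferase replicate 1 stood 0.26 above the others, and without that array Fzd7 passed (adjusted p = 0.00342). The other Fzd7 probe set went the other way (-0.10) and did not pass, and the mean of its 2 sets differed by 0.048 (adjusted p = 0.492). Fzd8, whose groups did not overlap, differed by 0.27 (adjusted p = 0.0594) and passed in 9 of 22 alternatives, among them the mean of its 2 probe sets (0.22, adjusted p = 0.00543), centred arrays (0.0482) and the fit without luciferase replicate 1 (0.0253). Fzd9 (-0.18, adjusted p = 0.0661) passed without Ctr9 esiRNA replicate 3 (0.0121).

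The co-receptor genes did not pass. Lrp6 read 9.07, 9.18, 9.13 and 9.19 with Ctr9 esiRNA, against 9.05, 9.15, 9.25 and 9.03 with luciferase esiRNA, a log2 difference of 0.02 with a 95% interval of -0.11 to 0.15. Lrp5, on a dim probe set, differed by 0.23 (95% interval -0.01 to 0.47, adjusted p = 0.158). The signals of the groups overlapped for both.

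**Figure D2:**
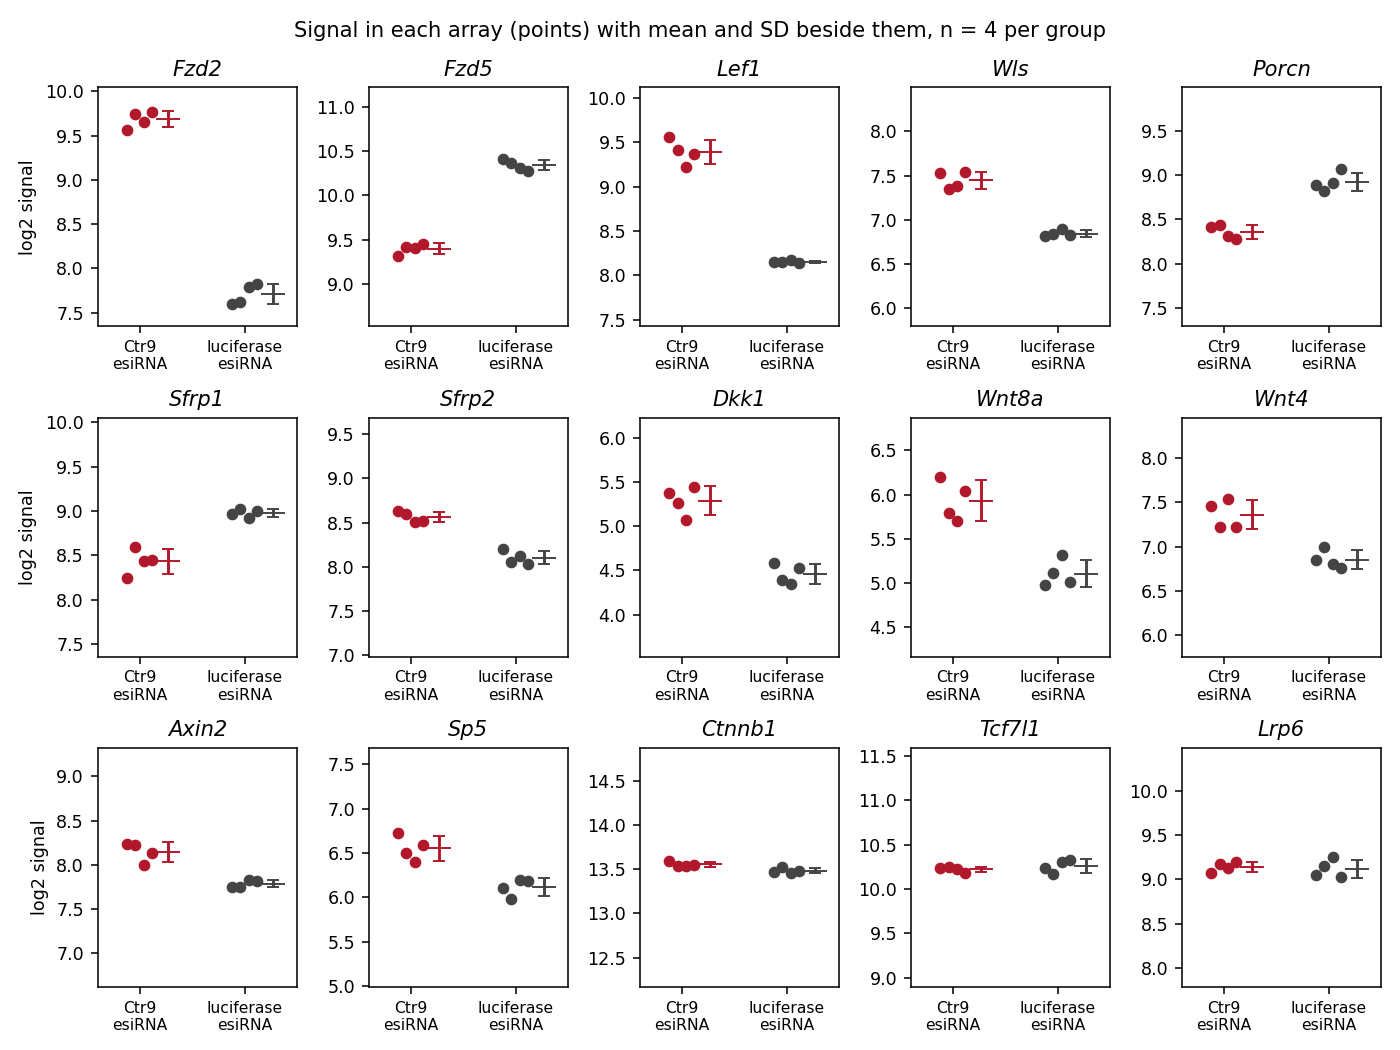
Log2 signal of 15 Wnt genes in each array, with Ctr9 esiRNA at the left and luciferase esiRNA at the right of each panel; every panel spans the same range of log2 units around the middle of the gene. Points are arrays and the bars beside them show the mean and SD (n = 4); Fzd2 and Lef1 lie higher and Fzd5, Porcn and Sfrp1 lower with Ctr9 esiRNA, while Ctnnb1, Tcf7l1 and Lrp6 differ by 0.07 or less in size.

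The 8 inhibitors divided, with 3 higher, 2 lower and 3 not past the test. Dkk1, a secreted antagonist that binds Lrp5 and Lrp6, read 5.38, 5.26, 5.07 and 5.45 with Ctr9 esiRNA, against 4.58, 4.39, 4.34 and 4.52 with luciferase esiRNA. It rose by 0.83 (SE 0.0856, 1.78-fold, adjusted p = 6.97e-05) without overlap, while its other, dimmer set differed by 0.06 and missed the threshold. The secreted Frizzled-related proteins, which bind Wnt ligands outside the cell, moved apart. Sfrp1 read 8.25, 8.60, 8.43 and 8.45 with Ctr9 esiRNA, against 8.97, 9.03, 8.92 and 9.0 with luciferase esiRNA, and fell by 0.55 (SE 0.0698, adjusted p = 0.000284). All 5 Sfrp1 probe sets fell, the smallest change among them being -0.23 (SE 0.0527). Sfrp2 read 8.63, 8.59, 8.5 and 8.52 with Ctr9 esiRNA, against 8.20, 8.06, 8.12 and 8.04 with luciferase esiRNA, and rose by 0.46 (SE 0.054, adjusted p = 0.000167). The groups did not overlap for Sfrp1 or Sfrp2.

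Frzb, another secreted Frizzled-related protein, read 4.86, 5.34, 5.01 and 5.02 with Ctr9 esiRNA, against 4.56, 4.56, 4.43 and 4.91 with luciferase esiRNA, which overlapped in 1 luciferase array (0.44, SE 0.117, adjusted p = 0.019). Its other probe set rose by 0.47 (SE 0.0778). Sfrp5 fell by 0.18 (SE 0.0535, adjusted p = 0.0324) with overlapping groups. Znrf3, a membrane ubiquitin ligase that removes Fzd receptors from the surface, read 7.70, 7.70, 7.79 and 7.69 with Ctr9 esiRNA, against 7.66, 7.81, 7.78 and 7.72 with luciferase esiRNA (-0.02, 95% interval -0.14 to 0.09). Kremen1, a Dkk1 receptor, differed by 0.04 (95% interval -0.06 to 0.14) and the Dickkopf relative Dkk3 by 0.16 (adjusted p = 0.132). The call of Frzb ended without luciferase replicate 3 (adjusted p = 0.0525), that of Sfrp5 ended without luciferase replicate 1, 3 or 4 or Ctr9 esiRNA replicate 1, 2 or 4 (0.0657 to 0.0853), and Dkk3 passed without luciferase replicate 2 (0.0355).

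Among the 7 cytoplasmic transducers, 1 rose (14.3%, near the 15.8% of all genes) and 6 did not pass. Gsk3b, the kinase that phosphorylates beta-catenin, read 8.85, 8.66, 8.63 and 8.63 with Ctr9 esiRNA, against 8.31, 8.42, 8.48 and 8.37 with luciferase esiRNA (0.30, SE 0.0629, adjusted p = 0.00569). None of the 5 other Gsk3b probe sets passed, and the mean over all 6 differed by 0.051 (adjusted p = 0.46). Ctnnb1 itself read 13.59, 13.54, 13.53 and 13.55 with Ctr9 esiRNA, against 13.47, 13.52, 13.45 and 13.48 with luciferase esiRNA. These values did not overlap, but the difference of 0.07 (95% interval -0.02 to 0.17, adjusted p = 0.265) did not pass, except with a trended and robust variance prior (adjusted p = 0.0214). Its 2 other probe sets differed by 0.02 and -0.06. Dvl1 read 8.69, 8.83, 8.88 and 8.74 with Ctr9 esiRNA, against 8.72, 8.68, 8.82 and 8.82 with luciferase esiRNA (0.03, 95% interval -0.10 to 0.15).

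The scaffold genes Axin1 (0.10) and Apc (-0.07) did not pass on their brightest probe sets, and 2 of 3 other Apc sets fell, by 0.20 and 0.25, at adjusted p = 0.0326 and 0.0173. The mean of the 4 Apc sets fell by 0.15 (adjusted p = 0.0258). Dvl2 differed by -0.14 (SE 0.0524, adjusted p = 0.0742) on its brightest set, while its other set fell by 0.43 (SE 0.0713) and the mean of both fell by 0.29 (adjusted p = 0.000933). Dvl3 differed by 0.16 (adjusted p = 0.0845) on its only set. Without luciferase replicate 2 Dvl2 passed (adjusted p = 0.043) and without luciferase replicate 1 Dvl3 passed (0.0333).

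Of the 3 TCF/LEF genes measured, 2 rose. Lef1, which binds beta-catenin and is also a known Wnt target, read 9.56, 9.41, 9.22 and 9.37 with Ctr9 esiRNA, against 8.15, 8.15, 8.17 and 8.14 with luciferase esiRNA. Its increase of 1.24 (SE 0.0672, 2.36-fold, adjusted p = 1.15e-06) ranked 115 among all genes, and its other probe set rose by 1.36 (SE 0.104). Tcf7l2, on a dim probe set, read 5.39, 5.33, 5.06 and 5.38 with Ctr9 esiRNA, against 4.78, 4.85, 4.81 and 4.83 with luciferase esiRNA (0.47, SE 0.0724, adjusted p = 0.000865). For both genes the luciferase arrays lay close together and the Ctr9 esiRNA arrays spread more widely above them. Of the 3 other Tcf7l2 sets, 1 rose, by 0.44, and 2 did not pass. Tcf7l1, the main repressor of the family in mouse ES cells, read 10.24, 10.24, 10.22 and 10.18 with Ctr9 esiRNA, against 10.23, 10.17, 10.31 and 10.33 with luciferase esiRNA. Its difference of -0.04 (SE 0.0503) had a 95% interval of -0.15 to 0.07, and its other set differed by -0.06.

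Of the 7 target genes, 3 rose and 4 did not pass. Axin2, a feedback inhibitor widely read as a measure of beta-catenin activity, had 8.24, 8.23, 8.0 and 8.13 with Ctr9 esiRNA, against 7.76, 7.75, 7.82 and 7.82 with luciferase esiRNA. It rose by 0.36 (SE 0.0606, 1.28-fold, adjusted p = 0.00161) without overlap, and its other, dimmer set differed by 0.07. Sp5, a zinc finger factor induced by Wnt signalling, had 6.72, 6.50, 6.40 and 6.59 with Ctr9 esiRNA, against 6.10, 5.98, 6.19 and 6.19 with luciferase esiRNA, and rose by 0.44 (SE 0.0769, adjusted p = 0.00208) without overlap. Sp8, a related factor of limb and neural development in the mouse, had 5.38, 4.79, 4.93 and 4.96 with Ctr9 esiRNA, against 4.67, 4.80, 4.43 and 4.56 with luciferase esiRNA. Those values overlapped, Ctr9 esiRNA replicate 1 was the highest, and the difference of 0.40 (SE 0.123, adjusted p = 0.0389) no longer passed without luciferase replicate 1, 3 or 4 or Ctr9 esiRNA replicate 1, 3 or 4 (adjusted p 0.0583 to 0.0995; log2 difference 0.28 without Ctr9 esiRNA replicate 1).

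Cdx1, a caudal homeobox gene responsive to Wnt and retinoic acid, had 4.92, 5.26, 4.92 and 5.38 with Ctr9 esiRNA, against 5.36, 5.27, 5.14 and 5.40 with luciferase esiRNA (-0.17, 95% interval -0.41 to 0.07). The Dvl-binding feedback inhibitors Nkd1 (0.11) and Nkd2 (0.21, adjusted p = 0.0803) did not pass on their brightest sets, although 1 dimmer Nkd2 set rose by 0.21 (SE 0.0654, adjusted p = 0.0429). Lgr5, an R-spondin receptor and stem cell marker of the gut, differed by 0.30 (SE 0.0992, adjusted p = 0.0522). Lgr5 lay near the threshold and passed in 8 of 21 alternatives, among them centred arrays (adjusted p = 0.045), quantile normalization (0.0488), cyclic loess (0.0454) and the fit without Ctr9 esiRNA replicate 3 (0.0124). Its other set differed by -0.14.

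TCF/LEF factors recognise a short core sequence, so the promoters of the members were searched for it. The table of RefSeq promoter windows (GRCm38.p6, 250 bases before to 50 bases after each start) held 41 windows of 31 of the 49 genes. The letters CTTTGAA or CTTTGAT, on either strand, were found in 5 of these windows (12.2%), against 8.65% of the 32851 windows in the table, which is a description of letters and not of binding. Of the 5 genes, Sp5, Dkk1, Sp8 and Wnt5b had passed as higher and Wnt11 had not passed. Of all 49 Wnt genes 40.8% passed as higher, but 18 of the 49 had no window and were not searched. That share is therefore not the share among the genes searched. The calls of Sp8 and Wnt5b were each lost in 6 fits that left out 1 array. Axin2, Lef1, Wls, Wnt4, Wnt3, Frzb, Fzd1, Fzd4, Fzd10, Gsk3b, Sfrp2 and Tcf7l2 were also higher and held no match in their windows. Most of the higher genes that had a window thus held no match. A link between a match and an increase was not tested. The windows are shown because they set the few matches side by side, each with 20 bases on either side of the match, 5′ to 3′ on the strand of the gene, in lower case with the match in capitals (TTCAAAG and ATCAAAG are the core read on the opposite strand). They lie at chr2:70474799-70474845 (plus strand) for Sp5, chr19:30549587-30549633 (minus strand) for Dkk1, chr12:118847162-118847208 (plus strand) for Sp8, chr6:119449431-119449477 (minus strand) for Wnt5b and chr7:98835041-98835087 (plus strand) for Wnt11.
Sp5: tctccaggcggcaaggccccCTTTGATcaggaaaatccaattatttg
Dkk1: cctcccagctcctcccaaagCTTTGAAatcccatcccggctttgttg
Sp8: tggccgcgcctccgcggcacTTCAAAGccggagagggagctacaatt
Wnt5b: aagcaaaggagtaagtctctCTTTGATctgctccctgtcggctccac
Wnt11: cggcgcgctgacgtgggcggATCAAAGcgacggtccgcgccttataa
The match began 104 bases before the start of Sp5, 117 before that of Dkk1, 51 before that of Sp8, 71 before that of Wnt5b and 51 before that of Wnt11. The other 36 windows, those of Axin2 and Lef1 and further windows of Sp8, Wnt5b and Wnt11 among them, held no match, which says only that these letters are not in those windows.

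Most Wnt genes could be read on more than 1 probe set. The 49 genes had 115 probe sets, of which 34 were higher and 13 lower, and 24.9% of all 45037 probe sets passed in either direction. Of 37 genes with several sets, 18 passed on the brightest. For 9 of these at least 1 other set passed in the same direction, and for Fzd2, Fzd5, Lef1, Sfrp1 and Frzb every other set did. For the other 9 (Dkk1, Wnt4, Wnt5a, Wnt5b, Fzd1, Fzd10, Gsk3b, Sfrp5 and Axin2) the call rests on the brightest set. In 6 genes (Fzd3, Dvl2, Apc, Nkd2, Wnt7a and Wnt7b) a dimmer set passed and the brightest did not. No gene had sets that passed in opposite directions. With the mean of all its sets in place of the brightest, the increase was 0.44 for Dkk1, 0.31 for Wls, 0.27 for Tcf7l2 and 0.21 for Axin2, all still past the test. Wnt5b (0.12, adjusted p = 0.0606), Fzd10 (0.081, adjusted p = 0.31), Wnt5a (0.035, adjusted p = 0.543) and Gsk3b (0.051, adjusted p = 0.46) no longer passed.

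**Figure D3:**
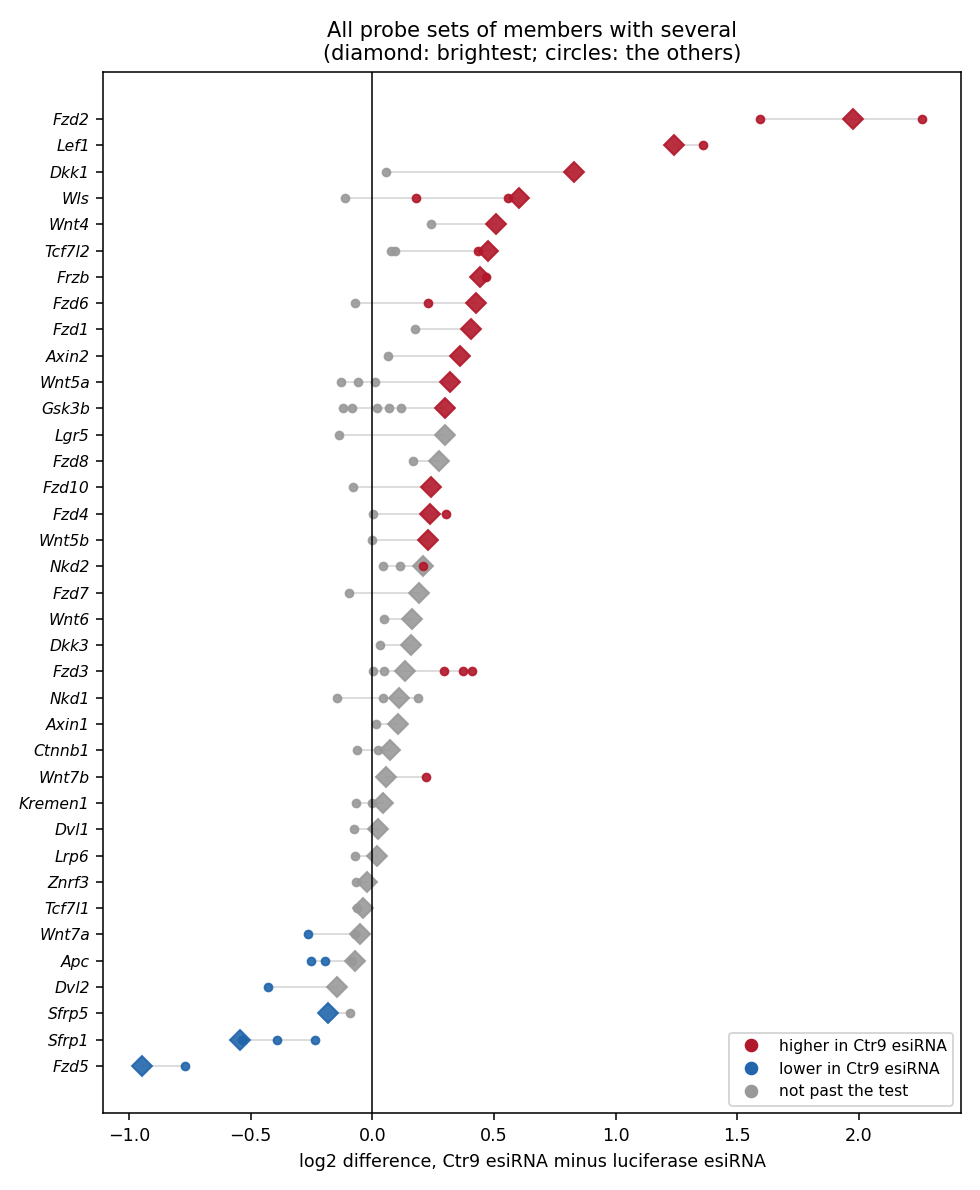
Log2 difference between Ctr9 esiRNA and luciferase esiRNA for every probe set of the 37 Wnt genes with several. Diamonds mark the brightest set of a gene and circles its others; red is higher, blue lower and grey not past the test. All sets of Fzd2, Lef1, Frzb, Sfrp1 and Fzd5 lie on 1 side and passed, while those of Wnt5a and Gsk3b spread around 0.

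Beyond the 49, a further list of 85 pathway genes was read, of which 82 had a probe set (Kremen2, T and Ephb2 were not analysed here). Of these 82, 32 were higher (39.0%, against 15.8% of all genes) and 7 lower (8.54%, against 15%), and their median log2 difference was 0.09. This list too was chosen with earlier results of these data known, so its shares are descriptive only. Of the 57 above the median probe set signal 33 passed (57.9%), and of the 25 dimmer ones 6 passed (24%), where 42.1% and 9.78% of all genes in those ranges did. Further target genes were higher in 10 of 13 cases and lower in 1. Cdx2, a caudal homeobox factor that is also a trophectoderm marker, read 7.21 ± 0.166 with Ctr9 esiRNA and 5.82 ± 0.145 with luciferase esiRNA (SD, n = 4 each), an increase of 1.39 (SE 0.094). Cd44, a hyaluronan receptor, rose by 1.4 (SE 0.139) on a dim probe set, and by 0.76 over the mean of its probe sets. Ccnd1, which encodes cyclin D1, rose by 0.49 (SE 0.0491). Ephb3, an ephrin receptor gene and the 1 lower gene of this list, named after its value was seen, fell by 0.29 (SE 0.0445). Many genes of this list answer to other pathways too.

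Membrane regulators were higher in 6 of 9 cases and lower in none. Counts in this and the following paragraphs on pathway lists belong beside the 15.8% of all genes that were higher and the 15% that were lower. Ror1, a receptor tyrosine kinase that binds Wnt5a, read 6.05 ± 0.272 with Ctr9 esiRNA and 4.92 ± 0.25 with luciferase esiRNA (SD, n = 4 each) and rose by 1.13 (SE 0.148). Over the mean of its 3 probe sets the Ror1 increase was 0.48. Ptk7, a co-receptor in planar cell polarity, rose by 0.56 (SE 0.0716), and Lgr4, an R-spondin receptor, rose by 0.40 (SE 0.0509) on its brightest set, whose call ended with the mean of its 2 sets (0.095). Of 13 further ligands and R-spondins 3 rose and none fell: Rspo1 (0.52, SE 0.0941) and Rspo3 (0.48, SE 0.119), which enhance Wnt signalling by shielding receptors from Znrf3, and Wnt9a (0.38, SE 0.0973). With the means of their 2 probe sets Wnt9a rose by 0.21 and Rspo3 differed by 0.15, which did not pass (adjusted p = 0.0836). The Wnt9a call ended without luciferase arrays 3 and 4 (0.26, adjusted p = 0.154), and that of Rspo3 without luciferase arrays 1 and 2 (adjusted p = 0.109) or 3 and 4 (0.056).

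The nuclear cofactors went both ways, with 5 of 13 higher and 2 lower. Tle5, a short Groucho family protein, read 9.22 ± 0.0546 with Ctr9 esiRNA and 10.20 ± 0.0323 with luciferase esiRNA (SD, n = 4 each) and fell by 0.98 (SE 0.0464, adjusted p = 4.95e-07). Of the full-length Groucho co-repressors, which bind TCF factors in the absence of beta-catenin, Tle3 fell by 0.30 (SE 0.0449) and Tle4 rose by 0.32 (SE 0.0598). Further antagonists were higher in 3 of 14 cases (21.4%) and lower in 2 (14.3%), near the 15.8% and 15% of all genes. Shisa2, which holds Fzd receptors back in the endoplasmic reticulum, fell by 0.66 (SE 0.0754), Notum, a secreted enzyme that removes the lipid from Wnt proteins, fell by 0.34 (SE 0.063), and the secreted Wif1 rose by 0.52 (SE 0.122) on a dim probe set. The Wif1 call ended without luciferase arrays 3 and 4 (adjusted p = 0.0908).

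Among 11 further genes of the destruction complex and cytoplasm 2 rose (18.2%) and 1 fell (9.09%), where 15.8% and 15% of all genes did. Csnk1a1, the kinase that primes beta-catenin, fell by 0.24 (SE 0.041), while Fbxw11, a beta-catenin ubiquitin ligase subunit, rose by 0.25 (SE 0.0526) and Gsk3a rose by 0.15 (SE 0.0425). In planar cell polarity, which shares Fzd and Dvl with the beta-catenin branch, 3 of 9 genes rose and 1 fell. Prickle1 read 7.97 ± 0.247 with Ctr9 esiRNA and 6.63 ± 0.145 with luciferase esiRNA (SD, n = 4 each), an increase of 1.34 (SE 0.117) that came to 0.42 over the mean of its 3 probe sets. Vangl2 rose by 0.19 (SE 0.0497) and the cadherin Celsr1 fell by 0.63 (SE 0.0715). The call of Gsk3a ended without luciferase replicate 1, 3 or 4 or Ctr9 esiRNA replicate 1, 2 or 4 (adjusted p 0.0574 to 0.0716), and that of Vangl2 ended without Ctr9 esiRNA replicate 4 (0.0509). With the mean of their probe sets Fbxw11 (0.079, adjusted p = 0.158) and Vangl2 (0.13, adjusted p = 0.0573) no longer passed.

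**Figure D4:**
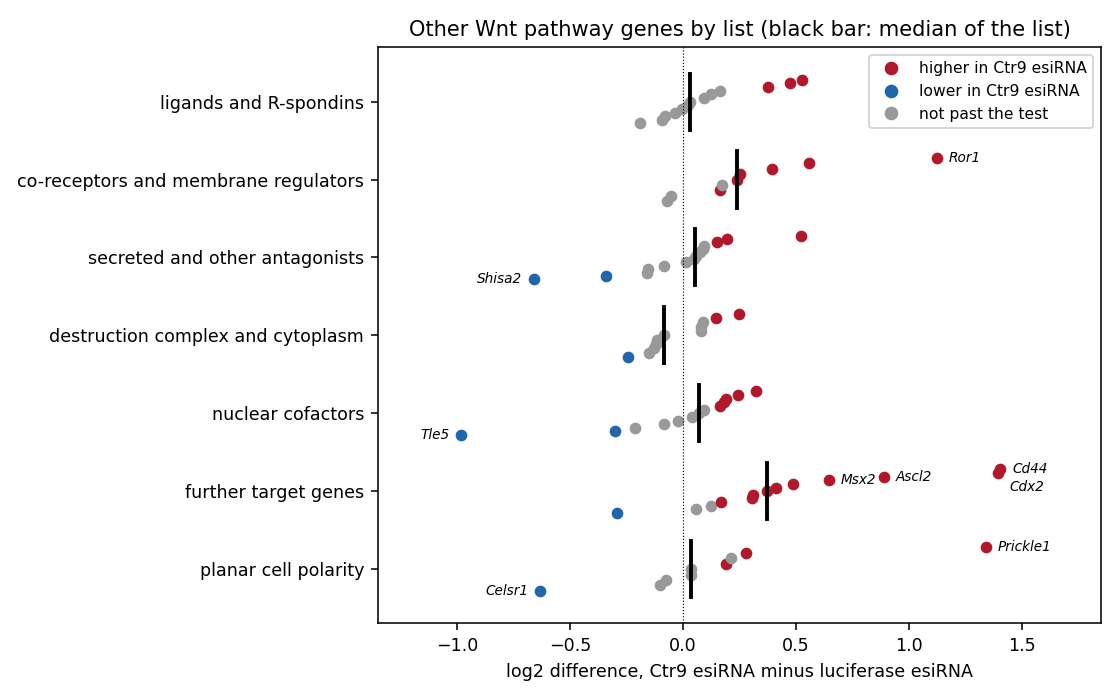
Log2 difference between Ctr9 esiRNA and luciferase esiRNA for 82 further Wnt pathway genes in 7 lists, on the brightest probe set of each. Points are genes (red higher, blue lower, grey not past the test), placed apart vertically for legibility, and black bars are list medians; 10 of the 13 further target genes were higher and Tle5 lay farthest to the left.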

How the data were processed

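The deposited table holds log2 probe set signals of 8 Affymetrix arrays; the submitters' processing notes name GCOS 1.4 and RMA, which summarises and equalises arrays and compresses dim signals. The arrays had upper quartiles of 8.10 to 8.15, so no further normalization was done. Of 45101 probe sets, 64 controls were left out. Of the 45037 tested, 34945 had 1 gene symbol in the platform annotation, 932 had several and 9160 were unnamed here. There were 456 empty values, none of them in a Wnt member. The number of arrays limits the precision.

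Groups (4 arrays each) were compared with limma 3.58.1 in R 4.3.3 (lmFit, eBayes) over all probe sets, with Benjamini-Hochberg adjustment and a threshold of 0.05. Where a gene had several single-symbol probe sets, it was read by the brightest, that is, by mean signal across all 8 arrays. In data simulated over 45037 probe sets, only 50 were changed at each of 4 sizes. There the fit found 98% of changes of 1 log2 unit, 62% of 0.5, 28% of 0.3 and 8% of 0.2, with 3 false calls among 101. In the real data 24.9% of probe sets passed, so the adjustment was stricter in the simulation. Its percentages therefore do not give the share of changes missed in the real comparison.

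Every Wnt gene is accounted for. Values by array are given for up to 4 genes per role with the smallest adjusted p that passed, and for the gene with the highest adjusted p where one did not pass. Values of Wnt5b and other genes outside that rule are given as differences, and the array values of Ctnnb1 and the ranges of Fzd7 were added after they were seen. Of the other pathway genes, up to 3 per list that passed are named. Members and lists were chosen with earlier results of these data known. Alternatives were another normalization, a filter on dim probe sets, another variance prior, array weights, a replicate block, arrays left out, another adjustment, averaging the probe sets of a gene and a threshold of 0.01.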

Additional observations from a re-analysis of the deposited data

Results flagged for a closer look

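In 144 groups of 4 arrays (72 genes in 2 groups), 10 had an array whose gap to its nearest neighbour exceeded 0.829 of the range of the group; chance gives about 1 in 20. Among the Wnt genes, Ctr9 esiRNA replicate 3 was highest for Wnt11 (gap 0.848 of the range) and Znrf3 (0.853) and lowest for Dkk3 (0.835), while Ctr9 esiRNA replicate 1 was highest for Gsk3b (0.848). Luciferase replicate 4 was highest for Fzd6 (0.831), at 8.05 against 7.67 to 7.73 in the other luciferase arrays. Luciferase replicate 1 was highest for Fzd7 (0.833), at 9.94 against 9.62 to 9.67. Among the other pathway genes, Ctr9 esiRNA replicate 1 was highest for Prickle1 (0.923), at 8.34 against 7.82 to 7.86, and for Tle4 (0.833). Ctr9 esiRNA replicate 3 was lowest for Wif1 (0.883), at 3.87 against 4.20 to 4.25, and luciferase replicate 2 was highest for Tle3 (0.881). Leaving out the array concerned did not end the call of Fzd6, Gsk3b, Prickle1, Tle3, Tle4 or Wif1.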

How the results depend on the processing

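Over 22 alternatives the number of Wnt genes past the test ranged over 15 to 23 higher and 3 to 7 lower, and 14 of the 24 genes that passed did so in every alternative run for them, 3 of the 14 (Dkk1, Tcf7l2 and Wnt8a) being too dim for the filter at the median signal. Of the 25 genes that did not pass, 11 passed in at least 1 alternative. With 1 array left out, 16 to 19 were higher and 3 to 5 lower, 22 to 29 other pathway genes were higher and 7 to 8 lower, 4827 to 5069 of all genes passed, and Ctr9 differed by -0.11 to -0.066. Of the other pathway genes, 20 were higher without luciferase arrays 1 and 2, 19 without luciferase arrays 3 and 4 and 15 at a threshold of 0.01, against 32, and at that threshold 3660 of all genes passed. The first 2 use fewer samples and the last a stricter limit. With probe sets averaged per gene, 7 Wnt genes were lower and Ctr9 differed by 0.027 (adjusted p = 0.698). The replicate numbers did not pair the samples: deviations of samples with the same number correlated at 0.0605, -0.0772, 0.0622 and -0.0668. With the replicate number as a block, 19 Wnt genes were higher and 3 lower and 4773 of all genes passed, Wnt3 (adjusted p = 0.0575), Fzd10 (0.0823) and Sfrp5 (0.0528) being lost and Lgr5 gained (0.0451). The control arrays were left out in pairs known from earlier results of these data. Among the calls lost were Gsk3b (adjusted p = 0.0502), Wnt3 (0.165) and Frzb (0.138) without luciferase arrays 1 and 2, and Sp8 (0.254) and Fzd4 (log2 difference 0.21) without luciferase arrays 3 and 4.

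The sign turned for 8 Wnt genes, none of them past the test. Wnt11 differed by 0.0069 with centred arrays, 0.0020 with quantile normalization, 0.0070 with cyclic loess, 0.067 without luciferase arrays 3 and 4, and -0.033 to 0.024 with 1 array left out. Znrf3 differed by 0.0019 with cyclic loess and by -0.050 to 0.00083 with 1 array left out. Dvl1 differed by -0.035 without luciferase arrays 1 and 2, -0.025 with the mean of its probe sets and -0.0059 to 0.057 with 1 array left out. Lrp6 differed by -0.025 with the mean of its probe sets and -0.0096 to 0.064 with 1 array left out. Tcf7l1 differed by 0.022 without luciferase arrays 3 and 4 and Kremen1 by -0.0082 with the mean of its probe sets. With 1 array left out Wnt3a ranged from -0.073 to 0.0047 and Wnt7a from -0.096 to 0.019. The causes were not tested. Other scalings moved the median of all genes by less than 0.1.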
